A study of Rattus norvegicus with 14 samples.

Results

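The transcripts described here encode liver enzymes that make NADPH, or that feed and drain the pathways that make it: the cytosolic malic enzyme Me1, the pentose phosphate enzymes H6pd, Pgls, Pgd, Taldo1 and Tkt, and the cytosolic isocitrate dehydrogenase Idh1. Genes were taken by symbol from the platform annotation, keeping array probes that carry exactly 1 gene symbol and the brightest probe of each gene. Of the 7 listed genes, 6 had such a probe, out of 14506 genes tested in all; each of the 6 had 1 probe. Pgd, the dehydrogenase of the oxidative pentose phosphate branch, was matched among the named probes by neither symbol, gene identifier nor transcript accession and was not analysed here. Probes without a symbol were not searched for it. Liver RNA came from female lean Zucker rats of about 15 weeks, all of genotype fa/+ (heterozygous for the fatty allele of the leptin receptor, which leaves them lean). For 64 days, 7 rats ate a standard diet supplemented with a rosemary extract and 7 control rats ate the standard diet alone. The extract was given at 0.05% of the diet by weight according to the sample labels (the series title gives 0.5%) and held 40% carnosic acid, a phenolic diterpene that reacts with thiols once oxidised. Each rat was hybridised to its own array, so every value below belongs to 1 animal, and all values are log2 expression values unless a fold is named.

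NADPH carries the electrons used by reductive synthesis, by the reductases that regenerate glutathione and thioredoxin, and by cytochrome P450 reductase. In the cytosol of a liver cell it is made mainly by the oxidative branch of the pentose phosphate pathway, by malic enzyme as it converts malate to pyruvate, and by isocitrate dehydrogenase. The non-oxidative branch, run by transketolase and transaldolase, makes no NADPH itself but returns pentose phosphates to glycolysis. Several of these genes are known to be controlled by NRF2, a transcription factor that electrophiles activate, while Me1 is also a classical target of thyroid hormone and of lipogenic signals.

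A promoter is shown for each of the 2 listed genes whose upstream bases held the core of the antioxidant response element, the site that NRF2 binds with a small MAF partner. The core was searched as TGACNNNGC on both strands in the 250 bases before a RefSeq transcription start (assembly GRCr8). For this search 6 of the 7 genes had an entry, and Pgls had none. Each sequence runs 5′ to 3′ on the gene's own strand and ends at the base before the start, with the core in capitals. The Me1 window lies on the minus strand at chr8:96540245-96540494 and the Idh1 window on the minus strand at chr9:74049475-74049724. The Idh1 and Tkt windows lie inside the annotated spans of their genes, and the H6pd window partly does. Starts farther upstream were not searched.
Me1: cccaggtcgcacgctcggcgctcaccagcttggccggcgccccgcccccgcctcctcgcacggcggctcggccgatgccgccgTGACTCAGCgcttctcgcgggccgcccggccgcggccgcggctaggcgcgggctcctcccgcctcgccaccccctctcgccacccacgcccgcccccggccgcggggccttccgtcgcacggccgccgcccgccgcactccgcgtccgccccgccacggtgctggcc
Idh1: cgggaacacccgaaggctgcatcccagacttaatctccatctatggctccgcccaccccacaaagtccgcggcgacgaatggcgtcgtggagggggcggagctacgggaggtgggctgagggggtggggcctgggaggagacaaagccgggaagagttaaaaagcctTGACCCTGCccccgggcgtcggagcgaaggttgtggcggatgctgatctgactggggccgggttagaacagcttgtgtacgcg
The Me1 core began 167 bases before the start, and its first letters, TGACTCA, also spell the AP-1 motif, so the motifs overlap there. The Idh1 core began 83 bases before the start and does not hold that motif. Over all 33469 promoter windows of the same length, 10.1% held the core and 0.376% held the exact letters of the Me1 core on either strand. Among tested genes with at least 1 window, the core occurred in 13.5% of the 251 that were higher with the extract, 12.7% of the 134 that were lower and 12.1% of all 11968. The Me1 window was 83.2% G and C, against 64% in the Idh1 window and 54.8% to 64.8% in those of H6pd, Pgd, Taldo1 and Tkt, which held no core. A match describes letters only: Idh1 carries one and did not pass the test below, and binding was not measured.

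Of the 6 measured genes, Me1 rose with the extract and the other 5 did not pass. The test was limma's moderated test over all 14506 genes with Benjamini-Hochberg adjustment and a threshold of 0.05. It called 1 of 6 genes higher and 0 lower, where 2.00% of all genes were called higher and 1.15% lower. The log2 fold, extract minus control, was above 0 in 5 of the 6, as it was in 49.7% of all genes. At an unadjusted p under 0.05 the count was 4 of 6 higher (Me1, Tkt, H6pd and Taldo1) and 0 lower, against 7.45% and 7.40% of all genes. The median log2 fold was 0.22 over the 6 and 0.17 over the 5 without Me1, beside a median of all genes that differed from 0 by less than 0.01. A test that allows the groups unequal variances, adjusted over all genes in the same way, also called 1 of 6, where it called 1.56% of all genes.

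Me1, the cytosolic malic enzyme, links export of citrate and malate from mitochondria to NADPH for fatty acid synthesis. Its level was 10.03 at the lowest, 10.39 at the median and 10.75 at the highest in extract rats, against 8.90, 9.10 and 9.53 in control rats. The groups did not overlap: a gap of 0.50 separated the lowest extract rat (rat 7) from the highest control rat (rat 1). Me1 was the 1 gene of the 6 without overlap, where 1.54% of all genes had none in either direction and 1.09% had none with the extract higher. The mean was 10.37 ± 0.23 in extract rats and 9.14 ± 0.22 in control rats (SD, n = 7 each), a 2.34-fold rise with a 95% confidence interval of 1.99 to 2.74 (log2 fold 1.22 ± 0.11 SE, adjusted p = 2.28e-06). The spread between rats was thus about the same in both groups, and the difference was several times that spread. Among all genes, 25 had a larger rise and 13 a smaller adjusted p.

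**Figure D1:**
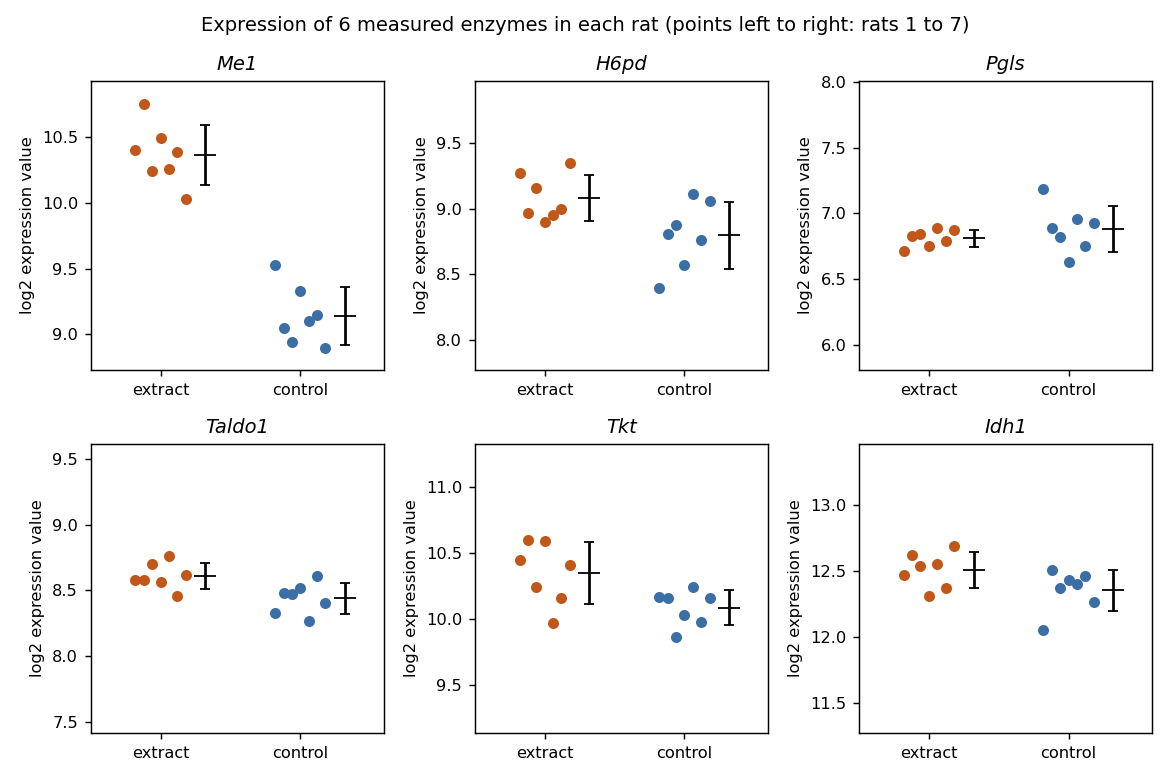
Log2 expression value (vertical axes, each spanning the same range) of the 6 measured genes in each rat, extract left and control right; points run from rat 1 to rat 7 within a group, and the black mark is the group mean with its SD (n = 7 each). Me1 is the panel in which the groups do not overlap, with a gap of 0.50, while in the other 5 panels the points of both groups overlap.

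In the oxidative branch, neither measured enzyme passed. H6pd encodes a bifunctional enzyme of the endoplasmic reticulum lumen that carries out the dehydrogenase and lactonase steps there, apart from the cytosolic pathway. It stood at 8.90, 8.99 and 9.34 (lowest, median and highest) in extract rats, against 8.40, 8.81 and 9.11 in control rats. All 7 extract rats lay above the control median and 3 lay above every control rat. The log2 fold was 0.29 ± 0.11 (SE; 95% interval 0.06 to 0.51), which did not pass adjustment (adjusted p = 0.194).

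Pgls, the cytosolic lactonase that hydrolyses phosphogluconolactone to phosphogluconate, had 6.71, 6.83 and 6.89 in extract rats, against 6.63, 6.89 and 7.19 in control rats. The extract rats all fell within the range of the controls, with 6 of 7 below the control median. The log2 fold was -0.07 ± 0.08 (SE; 95% interval -0.23 to 0.09; adjusted p = 0.758), and it was -0.02 without control rat 1, the rat with the highest value.

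In the non-oxidative branch both enzymes had positive folds that did not pass. Tkt, the transketolase that moves carbon units between sugar phosphates, had 9.97, 10.41 and 10.60 in extract rats, against 9.87, 10.16 and 10.24 in control rats. Of the extract rats, 4 lay above every control rat, and the SD was 0.23 in extract rats and 0.13 in control rats. Its log2 fold was 0.26 ± 0.10 (SE; 95% interval 0.06 to 0.46; adjusted p = 0.183), with adjusted p from 0.0614 to 0.347 when single rats were left out.

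Taldo1, the transaldolase that works with Tkt in the same branch, had 8.46, 8.58 and 8.77 in extract rats, against 8.27, 8.48 and 8.61 in control rats, with 3 extract rats above every control. The log2 fold was 0.17 ± 0.07 (SE; 95% interval 0.03 to 0.31; adjusted p = 0.229). Extract rat 5 had the highest Taldo1 and the lowest Tkt of its group, so in that rat these enzymes stood at opposite ends of their ranges. Averaged over both genes as the deviation from the control mean, the extract rats ranged from 0.05 to 0.33 (median 0.25), against -0.09 to 0.06 (median 0.01) in control rats, and 6 of 7 extract rats lay above all controls. For the oxidative branch the same average ranged from -0.01 to 0.27 (median 0.08) in extract rats, against -0.24 to 0.20 (median 0.01) in control rats, with 1 extract rat above all controls. These branch averages are descriptions, since the genes were grouped with their results known.

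Idh1, which makes NADPH in cytosol and peroxisomes while converting isocitrate to oxoglutarate, had 12.31, 12.54 and 12.69 in extract rats, against 12.05, 12.40 and 12.51 in control rats. The groups overlapped, and 4 of the 7 extract rats exceeded every control. Its log2 fold was 0.15 ± 0.08 (SE; 95% interval -0.01 to 0.32; adjusted p = 0.394), and 0.10 without control rat 1, which had the lowest value.

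**Figure D2:**
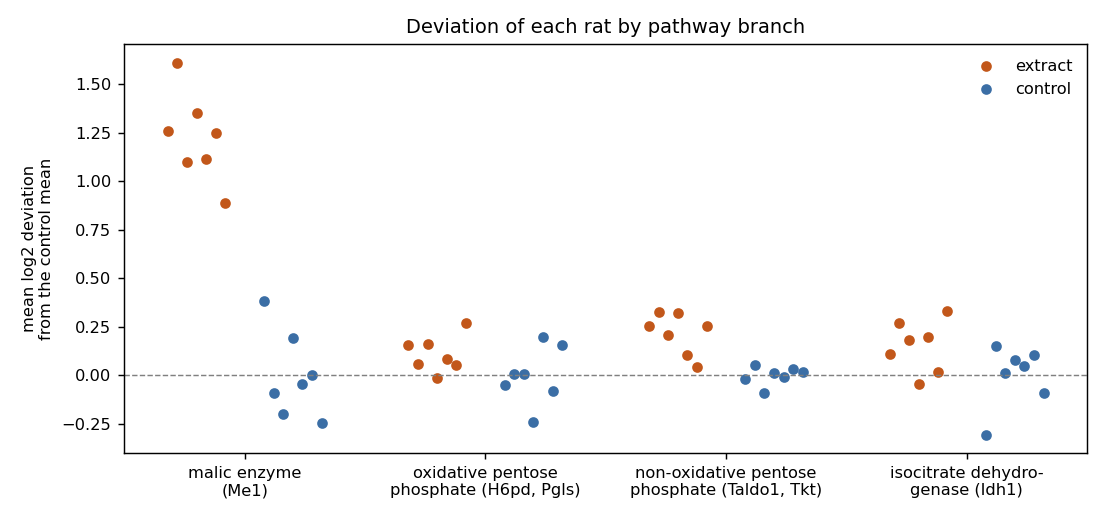
Deviation of each rat from the control mean in log2 units (vertical axis), averaged over the measured genes of each branch, for extract (left of each pair) and control rats (right), points running from rat 1 to rat 7. Extract rats lie 0.89 to 1.61 above the control mean for malic enzyme, and no farther than 0.33 for the other 3 branches.

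The 95% intervals, each for that gene alone, place an upper limit on the genes that did not pass. They reach 1.43-fold for H6pd, 1.38-fold for Tkt, 1.25-fold for Idh1, 1.24-fold for Taldo1 and 1.06-fold for Pgls, all below the 1.99-fold lower limit of Me1. The difference between the log2 fold of Me1 and that of each other gene was tested within rats by an exact two-sided permutation test over the 3432 assignments of rats to groups, a test chosen after the values had been seen. It was 0.94 ± 0.22 against H6pd (SE; exact p = 0.00408, adjusted over 5 differences p = 0.00408; 4 of 7 extract rats above every control) and 1.07 ± 0.17 against Idh1 (exact p = 0.00117, adjusted p = 0.00146; 6 of 7 rats). Against Tkt it was 0.96 ± 0.12, against Taldo1 1.05 ± 0.15 and against Pgls 1.29 ± 0.13, with all 7 extract rats above every control and the smallest p these assignments can give (exact p = 0.000583, adjusted p = 0.000971 for each). The extract was thus accompanied by a larger difference in malic enzyme transcript than in those of the other 5 measured enzymes.

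**Figure D3:**
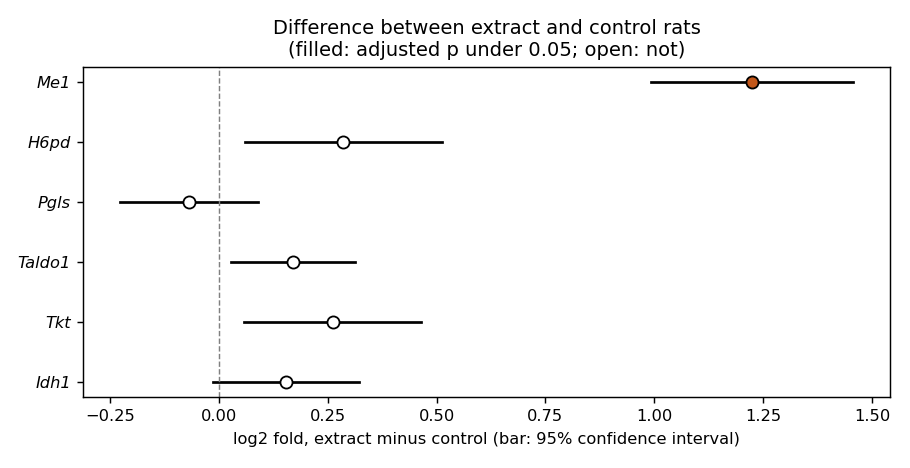
Log2 fold, extract minus control (horizontal axis), of the 6 measured genes with its 95% confidence interval; filled points passed an adjusted p of 0.05 over all genes and open points did not. The interval of Me1 (0.99 to 1.46) lies to the right of all the others, of which the highest, that of H6pd, ends at 0.51.

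From rat to rat, no relation between Me1 and the other enzymes passed adjustment. Within each group, the relation of Me1 to each of the other 5 genes was computed over 7 rats, 10 relations in all, with exact permutation tests over all pairings. The smallest adjusted p was 0.135 for Pearson's r and 0.463 for Spearman's rho. The lowest p was that of H6pd in control rats, with r = -0.861 (exact p = 0.013) and rho = -0.786 (exact p = 0.048). Without rats 1 and 4, r was -0.32. The 2 rats left out in each group were those farthest from its median of Me1. Leaving them out narrows the range of Me1, so r over the remaining rats cannot show what a relation rests on. Control rat 1 had the highest Me1 and the lowest H6pd of its group. In extract rats the same pair had r = -0.624 (exact p = 0.137) and rho = -0.571 (exact p = 0.20), with r = -0.242 without rats 2 and 7. Leaving out the same rats moved other relations as far, some away from 0. For Idh1, r was -0.932 without them and -0.298 with them in extract rats, and 0.775 without them and -0.477 with them in control rats. In extract rats r without them was -0.818 for Pgls, -0.743 for Taldo1 and 0.787 for Tkt, against -0.448, -0.39 and 0.507 over all 7. In control rats it was -0.30 for Pgls, 0.199 for Taldo1 and 0.157 for Tkt, against 0.282, -0.15 and 0.186 over all 7, so the sign turned for Idh1, Pgls and Taldo1 there.

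The arrays as a whole give context for these values. Array medians over all probes lay between 5.02 and 5.15, and the correlation across genes of one array with another was 0.984 to 0.997. The typical (median) SE of a fold on the log2 scale was 0.087, so the number of rats limits what can be seen of differences near 0.2. Extract rat 4 and control rat 1 had the lowest array weights (0.463 and 0.41, against 0.693 to 2.05 in the others). Without both, Me1 had a log2 fold of 1.27 (adjusted p = 1.41e-06) and the other 5 genes still did not pass (adjusted p from 0.195 to 0.98). All 10 hepatocyte markers were measured and did not pass in limma, with 0 at an unadjusted p under 0.05 and 0 when unequal variances were allowed. Their mean level per rat was 12.84 to 12.90 in extract rats and 12.81 to 12.99 in control rats. Markers of Kupffer cells and other macrophages, cells that also use the pentose phosphate pathway, were lower: all 12 measured had a negative fold (median log2 fold -0.28), and 2 fell, Marco (-0.73, adjusted p = 0.00586) and Vsig4 (-0.51, adjusted p = 0.0243; 0.0542 and 0.0617 without extract rat 1 or 2). With unequal variances allowed the Vsig4 call was lost (0.0972), and 1 of the 12, Marco, passed. Of all genes, limma called 3.15% in either direction and 1.15% lower, and 14.8% had an unadjusted p under 0.05. The unequal-variance test called 1.56% of all genes in either direction, and 49.7% had a positive fold. The mean level of the 12 per rat was 8.42 to 8.74 in extract rats and 8.79 to 9.09 in control rats, without overlap. In whole liver, fewer cells of a type and less RNA per cell cannot be told apart, and the part of this difference in the values of Tkt, Taldo1, H6pd, Pgls and Idh1 was not tested. Adipocyte markers, of interest because fat tissue is rich in Me1, passed in 0 of 5 (2 at an unadjusted p under 0.05, 0 when unequal variances were allowed), with a mean level of 4.95 to 5.14 in extract rats and 5.11 to 5.27 in control rats. No marker passed among 4 measured for erythroid cells, 6 for neutrophils, 6 for exocrine pancreas and 5 for bile duct cells in limma, where 0, 1, 1 and 1 of them had an unadjusted p under 0.05, nor in the unequal-variance test.

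A list of other genes of NADPH supply had 13 measured, of which 2 rose, 0 fell and 11 did not pass (median log2 fold 0.17). Not every gene in it makes NADPH itself. Over all genes, 2.00% were called higher and 1.15% lower. Aldh1l1, the cytosolic formyltetrahydrofolate dehydrogenase, which releases NADPH as it oxidises folate-bound formate, had 10.50, 10.76 and 11.02 in extract rats (lowest, median and highest), against 9.76, 10.18 and 10.48 in control rats. The groups did not overlap, and the log2 fold was 0.65 ± 0.10 (SE, adjusted p = 0.00122). Idh2, the mitochondrial counterpart of Idh1, had 8.91, 9.20 and 9.56 in extract rats, against 8.52, 8.88 and 9.11 in control rats. Its log2 fold of 0.37 ± 0.10 (SE) passed narrowly (adjusted p = 0.0407). The Idh2 call was lost without any one of extract rats 1, 2, 3, 4, 5 or 7 or control rats 2, 3, 4, 5 or 6 (adjusted p from 0.0581 to 0.0841) and when unequal variances were allowed (0.103). The other malic enzymes, both mitochondrial, did not pass: Me3 had a log2 fold of 0.28 (adjusted p = 0.0882) and Me2 of -0.12 (adjusted p = 0.631).

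Beyond Taldo1, Tkt, H6pd and Pgls, 11 further genes of the pentose phosphate pathway and its side paths were measured, of which 1 rose and 10 did not pass (median log2 fold 0.08). The share of all genes called higher was 2.00%. Prps1, which draws ribose 5-phosphate from the pathway to make phosphoribosyl pyrophosphate for nucleotides, had 7.14, 7.45 and 7.51 in extract rats, against 6.64, 7.04 and 7.27 in control rats. The groups overlapped, with a log2 fold of 0.40 ± 0.09 (SE, adjusted p = 0.0247). That call was lost without extract rat 2, 3 or 6 or control rat 3, 4 or 7 (adjusted p from 0.053 to 0.0591) and when unequal variances were allowed (0.0972). Rpia and Rpe, the isomerase and epimerase that connect the pathway's branches, had log2 folds of -0.09 and -0.10 (adjusted p = 0.64 and 0.753).

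The endoplasmic reticulum holds a separate NADPH pool that H6pd fills from glucose 6-phosphate imported by Slc37a4, and the reductase Hsd11b1, which turns inactive glucocorticoid into the active hormone, draws on it. Of 9 genes measured for glucose 6-phosphate supply and this compartment, 1 rose, Hsd11b1, and 8 did not pass (median log2 fold 0.11). The share called higher among all genes was 2.00%. Hsd11b1 had 9.09, 9.71 and 10.41 in extract rats, against 7.66, 8.41 and 9.85 in control rats, where rat 1 stood highest. Control rat 1 lay within the range of the extract rats, and all 7 extract rats lay above the other control rats. The log2 fold was 1.28 ± 0.27 (SE, adjusted p = 0.0135), and the call was lost when unequal variances were allowed (0.101). Slc37a4 had a log2 fold of 0.23 (adjusted p = 0.0718), so that of the 3 genes only Hsd11b1 passed in limma.

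Genes listed around the use of NADPH were counted by function, and not every enzyme among them takes NADPH itself. Among 13 reductases and related enzymes of detoxification and antioxidant defence, 8 rose, 0 fell and 5 did not pass, and all 13 had a positive fold (median log2 fold 0.55, beside 3.15% of all genes called in either direction). The strongest calls were of Akr1b8 and Akr7a3, which reduce aldehydes with NADPH (log2 folds 4.57 and 2.21, adjusted p = 2.71e-08 and 3.32e-08). Next came Nqo1, a quinone reductase (1.55, adjusted p = 3.59e-07), and Gsr, which regenerates glutathione (0.84, adjusted p = 1.42e-06). This list was chosen with its rise known from earlier results on these rats, so its direction is not independent evidence. Limma called 0 of 7 measured genes of fatty acid and sterol synthesis, the other large use listed (median log2 fold below 0.01 in size). Of these 7, 1 had an unadjusted p under 0.05, and the unequal-variance test called 0. The shares of all genes were 3.15% in limma, 14.8% unadjusted and 1.56% with unequal variances. For 7 genes of fatty acid and sterol synthesis, the counts are near those shares. Dhcr7, the final reductase of cholesterol synthesis, had the smallest p there (log2 fold 0.37, adjusted p = 0.0829), and it passed after median centring (0.0288), with array weights (0.023) and without extract rat 4 (0.0494). Fasn, the fatty acid synthase that uses the NADPH of malic enzyme, had 9.49, 10.29 and 10.55 in extract rats, against 9.54, 10.62 and 11.22 in control rats (log2 fold -0.27 ± 0.23 SE, adjusted p = 0.666). Fasn, Slc37a4, Thrsp and Nfe2l2 are named outside the rule for named genes, after their values were seen.

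The genes that feed malic enzyme and Idh1 through the citrate and malate shuttles gave no call. Limma found 0 of 11 past the threshold (median log2 fold -0.03), with 2 at an unadjusted p under 0.05 and 0 in the unequal-variance test. Over all genes the shares were 3.15% in limma, 14.8% unadjusted and 1.56% with unequal variances. For 11 genes, the counts are near those shares. Slc25a1, the mitochondrial citrate carrier, had the smallest p, with a negative log2 fold of -0.30 ± 0.09 (SE, adjusted p = 0.0723). It passed without control rat 1 (0.0292), after repeated quantile normalization (0.032) and with array weights (0.0489), while a second, dimmer probe of Slc25a1 gave -0.12 ± 0.09 on the same scale (SE), with an adjusted p of 0.663 over every probe. Among 9 regulators and partners of Me1 in lipid synthesis and thyroid hormone response, 2 rose and 1 fell (median log2 fold -0.06). The shares among all genes were 2.00% called higher and 1.15% called lower. Dio1, the deiodinase that activates thyroid hormone and is itself a target of the hormone, rose in extract rats, where the lowest rat stood at 11.52 and the median at 11.69, against a highest rat of 11.47 and a median of 11.31 in control rats (log2 fold 0.46 ± 0.10 SE, adjusted p = 0.0108). Gpd2, the mitochondrial glycerol phosphate dehydrogenase and another known thyroid hormone target, rose by a log2 fold of 0.55 ± 0.13 (SE, adjusted p = 0.0241), a call lost without extract rat 1 or 2 or control rat 2 or 3 (adjusted p from 0.0501 to 0.0602) and in the unequal-variance test (0.126). Nr1h3, the lipogenic oxysterol receptor, fell (log2 fold -0.35 ± 0.08 SE, adjusted p = 0.016; 0.0581 in the unequal-variance test). Thrsp, a lipogenic protein that responds to thyroid hormone, had 12.54, 12.69 and 12.75 in extract rats, against 12.40, 12.71 and 12.90 in control rats (log2 fold -0.03 ± 0.07 SE, adjusted p = 0.916). Of NRF2, its inhibitor and its partners, limma called 0 of 6 (2 at an unadjusted p under 0.05, 0 in the unequal-variance test). Beside the 3.15% of all genes called by limma, 0 of 6 is near that share, and 14.8% of all genes had an unadjusted p under 0.05. Bach1, a repressor at antioxidant response elements, had the smallest p (log2 fold 0.25, adjusted p = 0.0642). It passed after median centring (0.021), with array weights (0.0175), without extract rat 6 (0.0442) and without control rat 7 (0.0367). Nfe2l2, the gene of NRF2 itself, had a log2 fold of -0.27 (adjusted p = 0.135).

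**Figure D4:**
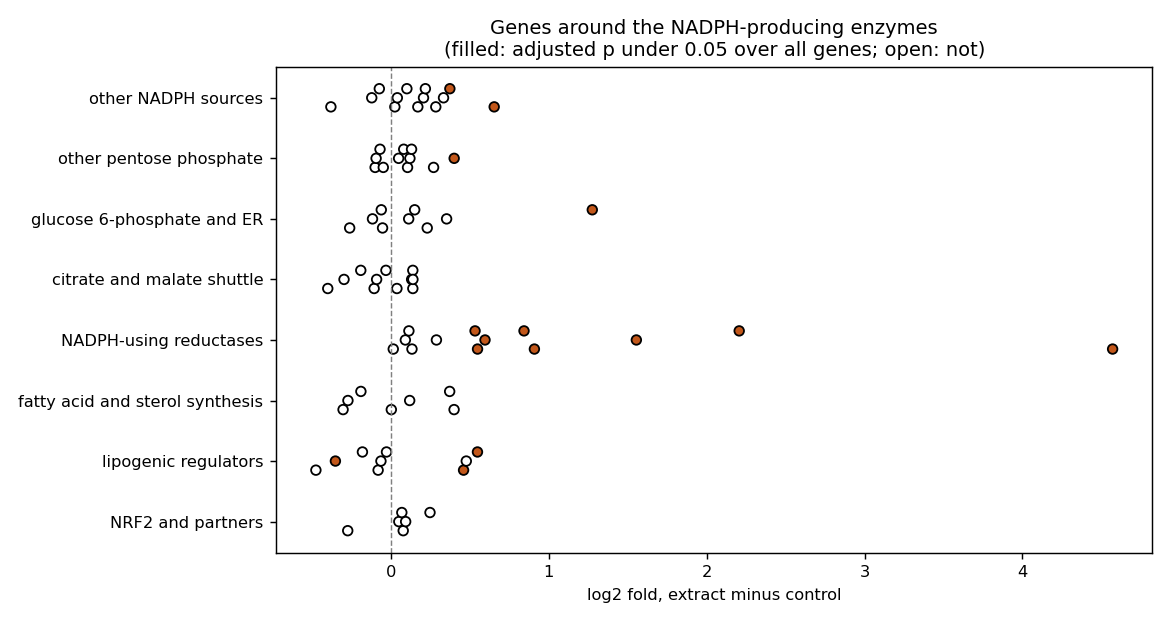
Log2 fold, extract minus control (horizontal axis), of each measured gene in 8 lists around the NADPH-producing enzymes (rows; points are spread vertically only to be seen apart); filled points passed an adjusted p of 0.05 over all genes. Filled points are most frequent in the row of NADPH-using reductases (8 of 13), and there is none in the rows of fatty acid and sterol synthesis, citrate and malate shuttle, and NRF2 and partners. Over all genes 3.15% passed, so rows this short without a filled point are near that share. Row names give the theme of each list, and not every gene in the NADPH rows makes or uses NADPH itself.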

How the data were processed

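Biotin-labelled sense-strand DNA from liver RNA was hybridised to Affymetrix whole-transcript arrays, each holding 1 rat, per the labels. The deposited table holds log2 expression values for 29215 probes, and per the submitters' processing notes the authors used RMA and Affymetrix Expression Console 1.1.2; the options set are not given in the sources used here. RMA understates folds of dim probes, and no call of detection was made. Platform annotation named 15310 probes with exactly 1 symbol, 323 with several, and 13582 were left unnamed; the brightest probe per gene gave 14506 genes.

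Groups came from sample titles. Extract and control were compared with limma 3.58.1 in R 4.3.3, with no covariate, adjusted over all genes (Benjamini-Hochberg, 0.05). On simulated data for the 14506 genes the test recovered 85.7% of changes of 0.5 and 100% of changes of 1 on the log2 scale, with 5.18% false calls. Fewer relations between genes were computed than planned because no named probe matched Pgd. Permutation tests, the motif search and figures used Python 3.11.15, scipy 1.17.1 and matplotlib 3.10.9.

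The genes, the 8 gene lists and 7 marker lists around them and the tests were chosen with earlier results of these data known. Named are all measured genes of the set, for each list up to 4 genes that passed, in order of p, or else its first by p, other NADPH and pentose phosphate genes by value, and the 5 genes most like Me1. Alternatives were repeated quantile normalization, median centring, a filter on dim genes, the mean of all probes, every probe, array weights, robust variance with an intensity trend, a replicate block, an unequal-variance test, a looser threshold and leaving out arrays.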

Additional observations from a re-analysis of the deposited data

How the results depend on the processing

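Under the 24 alternatives run for each measured gene, Me1 was the 1 gene of the set that passed, with a log2 fold of 1.16 to 1.29 (adjusted p from 1.89e-07 to 0.000419), and no other fold changed sign or passed. Alternatives that alter only the variance model, the block, the choice of probes or the set of genes leave these folds unchanged by construction. When single rats were left out, the log2 folds ranged from 1.16 to 1.29 for Me1, 0.22 to 0.34 for H6pd, -0.11 to -0.02 for Pgls, 0.14 to 0.20 for Taldo1, 0.22 to 0.32 for Tkt and 0.10 to 0.19 for Idh1. The 457 genes called overall (290 higher, 167 lower) became 694 with array weights (262 lower), 227 in the unequal-variance test per gene (171 higher, 56 lower) and 719 at an adjusted p of 0.1 (291 lower). Without single rats the number lower ranged from 116 to 292, the highest without control rat 1; the number in all ranged from 326 to 621. Median centring called 415 higher and 144 lower. Deviations from the group means had correlations of -0.46 to 0.282 between rats of the same number. The sample titles state no pairing, and these correlations cannot tell whether the numbers pair the rats. With the rat number as a replicate block in limma, 364 genes were called and Me1 had a log2 fold of 1.22. Idh2, Gpd2 and Nr1h3 had adjusted p of 0.105, 0.066 and 0.0671 in that fit. The correlation of Me1 with Taldo1 in control rats, -0.15 as deposited, was 0.212 after repeated quantile normalization and 0.198 after median centring, and did not pass in either; the cause was not tested. With every probe tested, the calls of Prps1, Idh2, Gpd2 and Vsig4 were lost (adjusted p of 0.052, 0.0777, 0.0544 and 0.0544). Without control rat 1 and extract rat 4 together the Idh2 call was lost (0.0517). The fits without control rat 1 and extract rat 4 together, and the alternatives for correlations and differences between folds, were added after the data had been seen.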

Other observations

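The genes whose rat-to-rat variation was most like that of Me1, measured as Pearson's r of deviations from the group means over 14 rats, were Inmt (0.904), Zg16 (0.868), Grsf1 (0.847), Fabp5 (0.829) and Phf10 (0.827). These are the highest of 14505 correlations over few rats that share arrays, given as a description with no test. None of the 5 passed between the groups: their log2 folds ranged from -0.11 (Fabp5) to 0.15 (Inmt), with adjusted p from 0.391 to 0.951. Inmt averaged 4.49 in extract rats and 4.34 in control rats, and Zg16 averaged 3.76 in extract rats and 3.75 in control rats. Both are dim, below the array medians of 5.02 to 5.15. Without a call of detection, it is open whether their variation is that of the transcripts.

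No rat stood apart from its group by Dixon's criterion in any of the 52 groups of values examined, 26 genes in 2 groups each.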
